A study of Mus musculus with 29 samples.

Results

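Cathepsins are the proteases that digest proteins inside lysosomes, and cystatins are the small proteins that inhibit many of them. The 10 genes followed here are 7 cathepsins (Ctsb, Ctsd, Ctsl, Ctss, Ctsz, Ctsh and Ctsc) and 3 cystatins (Cst3, Cst7 and Cstb), described across the main cell types of a Drop-seq study of mouse brain and blood after stroke. They were taken by name, and all 10 were present among the 19704 genes of the 12 young brain libraries, the 27514 genes of the 6 aged brain libraries and the 16623 genes of the 11 blood libraries. All mice were C57BL/6J, and had either an experimental stroke or a sham operation. Young mice, 8 to 10 weeks old and male, gave 4 brain libraries 2 days after sham surgery, 4 at 2 days after stroke and 4 at 14 days after stroke. Aged mice, 17 to 20 months old, gave 2 brain libraries at 2 days after sham surgery (1 male, 1 female), 3 at 2 days after stroke (1 male, 2 female) and 1 female library at 14 days after stroke. Young male mice also gave blood leukocyte libraries, 4 at 2 days after sham surgery, 4 at 2 days after stroke and 3 at 14 days after stroke. Sham surgery was sampled at day 2 alone, so both stroke times are set against the same day 2 shams. Brain cells were sorted as CD45high cells, microglia and endothelial cells after papain digestion with the transcription inhibitor actinomycin D and receptor blockers present. Each brain library pooled 4 to 5 hemispheres, and each blood library the blood of 2 mice.

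Most of these cathepsins are cysteine proteases made as inactive precursors, sorted to lysosomes by the mannose 6-phosphate pathway and activated there by acid. Cathepsin D is the exception among them, an aspartic protease, and cathepsin C is a dipeptidyl peptidase that activates the serine proteases stored in granulocyte and lymphocyte granules. Among the inhibitors, cystatin C (Cst3) is secreted and is abundantly transcribed by microglia, cystatin B (Cstb) works in the cytosol, and cystatin F (Cst7) enters lysosomes, where its best known target is cathepsin C. In the brain, microglia and macrophages are the main lysosomal scavengers, and Cst7 is a known marker of microglia that respond to damage.

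Promoters are shown for Ctsd and Ctsl because their start regions carry the letters CACGTG. This is the E-box that factors of the TFEB family bind in many lysosomal genes. RefSeq promoters of GRCm38.p6 (mm10), running from 250 bases before to 50 bases after each start, were found for 7 of the 10 members; Ctsb, Ctsh and Cstb had no entry in the table. CACGTG lies in 7.15% of all 32851 promoters of that length, and in those of Ctsd and Ctsl among the members. It begins 245 and 98 bases before the Ctsd start and 236 bases before the Ctsl start. Both strands were searched for each motif, and no member's promoter held more than 1 kind of the 3 motifs. The AP-1 motif TGANTCA lies in 7.81% of all promoters and in Cst7's, and the PU.1 core GAGGAAGT in 3.2% and in those of Ctss and Ctsc. These are matches of letters only, and binding was not measured. The E-box is in capitals below, on the minus strand at chr7:142387828-142388077 for Ctsd and chr13:64370711-64370770 for Ctsl.

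Ctsd: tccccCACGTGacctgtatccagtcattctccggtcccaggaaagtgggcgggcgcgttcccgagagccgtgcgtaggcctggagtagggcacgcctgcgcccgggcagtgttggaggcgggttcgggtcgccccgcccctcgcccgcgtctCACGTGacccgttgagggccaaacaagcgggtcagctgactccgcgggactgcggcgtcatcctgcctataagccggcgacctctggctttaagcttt
Ctsl: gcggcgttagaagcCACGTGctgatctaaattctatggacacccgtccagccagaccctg

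The 29 libraries held 106977 cells, 1143 to 6328 a library, with 819438 to 5855047 counts a library and a median of 321 to 1363 counts a cell. Of 106624 barcodes, 345 occurred in more than 1 library, at most 0.169% of the cells of any pair. Cell types are the authors' own annotation of these cells, and a gene's value in a type and library is its share of all summed counts there, scaled to 1000000 (CPM), given where the type had at least 20 cells. How doublets were treated is not given in the sources used here. The annotated names were checked against marker lists: microglia, monocyte-derived cells (MdC), border-associated macrophages, endothelial, B, T and NK cells, granulocytes and blood neutrophils each had their own list highest. Cells annotated as DC had the monocyte-derived list highest. So did blood monocytes, at a mean of 1980 CPM a gene against 992 for the blood monocyte list. Both are named here as annotated. The microglia of stroke day 2 replicate 3 stood apart: only 58 cells, 26321 counts and a microglia marker sum of 817 CPM, against up to 12465 CPM in the other day 2 libraries. Deposited values are fractions below whole numbers, and in those 58 cells they kept 20.4% of the sum obtained by rounding each value up, against at least 88.1% in the sham microglia. Calls and differences of the members that rest on this library are given with and without it.

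In sham brain, 5 of the 10 genes had their highest level in microglia: Ctsd, Ctsl, Ctss, Ctsz and Cst3. Cst3 stood at 42596 ± 6109 CPM in sham microglia (SD, n = 4), above 9745 ± 4383 in DC, 7685 ± 3759 in border-associated macrophages and 3239.9 ± 1594 in MdC. The microglial libraries did not overlap with those of any other type. Ctss, the cathepsin that trims the invariant chain of MHC class II and works outside acid compartments too, stood at 7632 ± 817 CPM in microglia, above 2485 ± 1115 in border-associated macrophages, 2166 ± 911 in MdC and 1614 ± 723 in DC, and those last 3 overlapped. The deposited Ctss values of endothelial cells summed to 0 in 3 sham libraries and to 6.35 counts in the other. That is 3.61% of the 176 these values gave when rounded up in each cell, so no limit is drawn from the zeros. Ctsd stood at 4611 ± 1344 CPM in microglia and 879 ± 589 in border-associated macrophages, and Ctsl at 1945 ± 297 and 621 ± 239, the types again not overlapping for either gene.

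Border-associated macrophages, which live in the meninges and around vessels, led for Ctsc at 1250.0 ± 217 CPM (SD, n = 4), above MdC at 613 ± 102 and microglia at 331 ± 68.8, with no overlap between those neighbours. For Ctsb the macrophages, at 3558 ± 1607 CPM, and microglia, at 2292 ± 135, overlapped, and both means lay above MdC at 1129 ± 298. Ctsh was not separated between border-associated macrophages, microglia, DC and MdC, whose means ran from 479 to 575 CPM. Cstb had its highest sham mean in MdC, 496 ± 275 CPM, overlapping with border-associated macrophages at 329 ± 121. Among the types measured in more than 1 sham brain library, Cst7 was highest in T cells, at 91.2 ± 61.5 CPM, and stood at 15.4 ± 5.79 in microglia. NK cells were measured in only 1 sham brain library, with 2.99 counts of Cst7, so they were not ranked there.

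At day 14 microglia had the highest level of 7 of the 10 genes, the 5 of sham brain with Ctsb and Cst7. Ctsc was still highest in border-associated macrophages, and Cstb and Ctsh had their highest means in MdC, where each overlapped with the next type. Cst7 stood at 1820.1 ± 398 CPM in day 14 microglia (SD, n = 4), against 252 ± 58.3 in NK cells (n = 3) and 174 ± 33.3 in granulocytes (n = 4), and the lowest microglial library lay above the highest of both. At day 2 its highest mean was in NK cells, 310.2 ± 143 CPM (n = 2), overlapping with microglia at 184 ± 98.9 (n = 4), and with TMM scaling microglia came first. Ctsb levels of microglia, border-associated macrophages and MdC overlapped at day 2, at 7912 ± 1191, 7742 ± 529 and 6674 ± 890.4 CPM (n = 4 each), all far above granulocytes at 1046 ± 346. No test was made of these orders, because the types were drawn from the same cells by their expression.

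In young microglia, the resident phagocytes of the brain, 5 of the 10 genes rose by day 2 after stroke: Ctsb, Ctsz, Ctsc, Cst7 and Cstb. None fell by the test, against a background in which 15.7% of the 10145 genes tested were higher and 15.7% lower (31.4% in either direction). By day 14 the number was 8 higher and 0 lower, with 10.6% of all genes tested higher and 4.66% lower (15.2% in either direction), and Ctsd, Ctsl, Ctss and Ctsh were among them while Ctsc was not. With values rounded up in each cell, the day 2 calls of Ctsb and Ctsz were lost (1.58 and 1.21; edgeR adjusted p = 0.0607 and 0.0976). So were the day 14 calls of Ctsd, Ctsl, Ctss and Ctsh, at edgeR adjusted p = 0.0686, 0.0653, 0.256 and 0.109. Without the filter on low counts those of Ctss and Ctsh were lost too (edgeR adjusted p = 0.111 and 0.0742). The 10 genes had a median log2 difference from sham of 1.16 at day 2, where that of all genes tested was -0.05, and of 1.83 at day 14, where it was -0.04. Both contrasts share the 4 sham libraries. Calls are from edgeR's quasi-likelihood test across all genes with Benjamini-Hochberg adjusted p under 0.05, on counts summed per library. Errors of log2 differences are SE, with n = 4 against 4 in young brain. The libraries are pools of animals, so p-values measure the spread between these pools. Most sham microglia were of the authors' clusters Mg1 (53.6% of cells) and Mg2 (37.2%), those of day 2 of Mg4 (38.4%) and Mg5 (33.8%), and those of day 14 of Mg3 (66.1%).

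Cathepsin B (Ctsb), which cuts proteins both internally and from their ends, stood at 2199, 2202, 2281 and 2487 CPM in the 4 sham microglial samples, at 6844, 6960.2, 8627 and 9215 at day 2 and at 9018, 7508, 12279.9 and 8619 at day 14. Every stroke library lay above every sham library, and days 2 and 14 overlapped. It rose by 1.89 ± 0.30 on the log2 scale at day 2 (edgeR adjusted p = 0.000736) and by 2.49 ± 0.31 at day 14 (edgeR adjusted p = 0.00013). Cathepsin Z (Ctsz), a carboxypeptidase, stood at 1254, 1064, 786 and 799 CPM in sham, 2237, 2122, 2016 and 3077 at day 2 and 2459, 2172, 3666 and 1887 at day 14. Sham and stroke did not overlap for Ctsz either, and it rose by 1.42 ± 0.32 (edgeR adjusted p = 0.00607) and 1.86 ± 0.33 (edgeR adjusted p = 0.00205).

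In edgeR, Ctsd and Ctsl passed the test at day 14 and not at day 2 while the small library was included. With all libraries DESeq2 called 8 members at day 2, against 5 in edgeR. The share of all genes that DESeq2 called there is not given here. Ctsd stood at 6489, 4642, 3467 and 3848 CPM in sham, 7227, 7798, 5807 and 9654 at day 2 and 13348, 11974, 21729 and 10016 at day 14. Its day 14 libraries all lay above the sham and the day 2 libraries, with replicate 3 the highest, whereas day 2 replicate 3, at 5807, fell below sham replicate 1. The log2 difference of Ctsd was 0.87 ± 0.38 at day 2 (edgeR adjusted p = 0.0925) and 2.11 ± 0.39 at day 14 (edgeR adjusted p = 0.00292). Ctsl stood at 1508, 2008, 2144 and 2118 CPM in sham, 3567, 3547, 1734 and 4201 at day 2 and 4585, 4070.3, 5398 and 5751 at day 14, where again day 2 replicate 3 alone lay within the sham range. The log2 difference of Ctsl was 0.90 ± 0.35 (edgeR adjusted p = 0.0633) and then 1.80 ± 0.36 (edgeR adjusted p = 0.00469). Without day 2 replicate 3, 8 members were called at day 2 rather than 5, and the share of all genes called in that fit is not given here. Ctsd and Ctsl were higher, by 1.04 and 1.14 (edgeR adjusted p = 0.0322 and 0.0053). Cst3 was lower, at -0.88 (edgeR adjusted p = 0.00899). The 5 calls with all libraries stayed, at 1.94 for Ctsb, 1.55 for Ctsz, 1.45 for Ctsc, 4.04 for Cst7 and 2.49 for Cstb, with edgeR adjusted p of at most 0.00378.

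Ctss and Ctsc had different time courses. Ctss stood at 8533, 8030.3, 6679 and 7283 CPM in sham, 5305, 5770.5, 4612 and 5567 at day 2 and 12051, 11513, 13462 and 11088 at day 14, 3 ranges that did not overlap, with day 2 the lowest. The test put it at -0.40 ± 0.29 at day 2 (edgeR adjusted p = 0.298), 1.12 ± 0.29 at day 14 (edgeR adjusted p = 0.0223) and 1.52 ± 0.30 between days 14 and 2 (edgeR adjusted p = 0.00823). Its day 14 call was lost without sham replicate 3 or 4 or without day 14 replicate 1, at edgeR adjusted p of 0.054, 0.0565 and 0.0513, with a log2 difference of 1.08 to 1.13. Ctsc, whose product is held in check by cystatin F, stood at 433, 297, 283 and 310.4 CPM in sham, 732, 596, 1176 and 1014 at day 2 and 338, 259, 492 and 329 at day 14. All 4 day 2 libraries lay above all others, and sham and day 14 overlapped. Ctsc rose by 1.5 ± 0.27 at day 2 (edgeR adjusted p = 0.0015), its day 14 difference from sham was 0.57 ± 0.26 (edgeR adjusted p = 0.145), and that between days 14 and 2 was -0.92 ± 0.27 (edgeR adjusted p = 0.0545). Ctsh, an aminopeptidase, ranged from 450.4 to 695 CPM in sham, 580.2 to 661 at day 2 and 576 to 969 at day 14, the groups overlapping. Its call at day 14 (0.85 ± 0.24, edgeR adjusted p = 0.0309) was lost without any 1 of sham replicates 2 to 4 or day 14 replicates 1 to 3. With replicate number as a block, the day 14 calls of Ctss and Ctsh were both lost.

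Cst7 had the largest log2 difference of the 10 at both times. It stood at 9.55, 23.4, 13.7 and 15.1 CPM in sham microglia, 198, 209, 46.0 and 281 at day 2 and 1932, 1693, 2300.4 and 1356 at day 14, and the 3 ranges did not overlap. Day 2 replicate 3, the library of 58 cells, was the lowest of its group, and its deposited Cst7 values kept 3.56% of their rounded-up sum. Cst7 rose 14.5-fold at day 2 (3.86 ± 0.45 on the log2 scale, edgeR adjusted p = 7.15e-05) and 157-fold at day 14 (7.29 ± 0.51, edgeR adjusted p = 1.77e-06), and from day 2 to day 14 by 3.44 ± 0.43 (edgeR adjusted p = 0.000677). Day 14 against day 2 gave 2 members higher, Cst7 and Ctss, and none lower, with 3.47% of all genes tested higher and 6.93% called in either direction. DESeq2 called 7, with Ctsb, Ctsd, Ctsl and Cst3 also higher and Ctsc lower, at -0.84 (DESeq2 adjusted p = 0.00702). Its share of all genes called between these times is not given here. Scaled by library size alone, without TMM, Ctsc and Cstb were lower, at -1.29 and -1.69 (edgeR adjusted p = 0.00848 and 0.041), beside the higher Ctss and Cst7. Without day 2 replicate 3, Cst7 and Ctss were higher by 3.24 and 1.38, and Cst3 also, by 0.82 (edgeR adjusted p = 0.000682, 0.00335 and 0.0341). The Ctss call between the times was lost without the filter, with values rounded up and in a fit of only the compared groups (edgeR adjusted p = 0.075, 0.128 and 0.0514).

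Cstb had its highest mean at day 2: it stood at 177, 145, 144 and 125 CPM in sham, 545, 584, 3284 and 1018 at day 2 and 346, 323, 581 and 326 at day 14. Each stroke library exceeded each sham library, and the highest, day 2 replicate 3, was the small one. It rose by 3.10 ± 0.46 (edgeR adjusted p = 0.000393; 2.49 without that library) and 1.89 ± 0.43 (edgeR adjusted p = 0.0107), the day 14 call being lost without sham replicate 3 or 4 (edgeR adjusted p = 0.0515 and 0.0594). Days 14 and 2 overlapped, and the difference of -1.22 ± 0.43 between them was not called (edgeR adjusted p = 0.108; -0.62 and 0.291 without day 2 replicate 3). Cst3 had lower CPM after stroke, from 50393, 44481, 37134 and 38379 in sham to 20949.8, 20247, 3552 and 19735 at day 2 and 29209.6, 33338, 26221 and 31127 at day 14. All stroke libraries lay below all sham libraries, and the day 2 libraries below those of day 14. The test did not call it with all libraries, at -1.22 ± 0.51 for day 2 (edgeR adjusted p = 0.0837) and -0.05 ± 0.51 for day 14 (edgeR adjusted p = 0.969). Scaling matters for Cst3: on library size alone the values were -1.39 (edgeR adjusted p = 0.0359) and -0.50 (edgeR adjusted p = 0.389). Over all genes, that scaling shifted the median from -0.05 to -0.22 at day 2 and from -0.04 to -0.49 at day 14. The called genes went from 1588 higher and 1594 lower to 1273 and 2118 at day 2, and from 1071 and 473 to 670 and 2755 at day 14. Without TMM the day 14 calls of Ctss and Ctsh were lost (0.66 and 0.39; edgeR adjusted p = 0.0552 and 0.17).

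**Figure D1:**
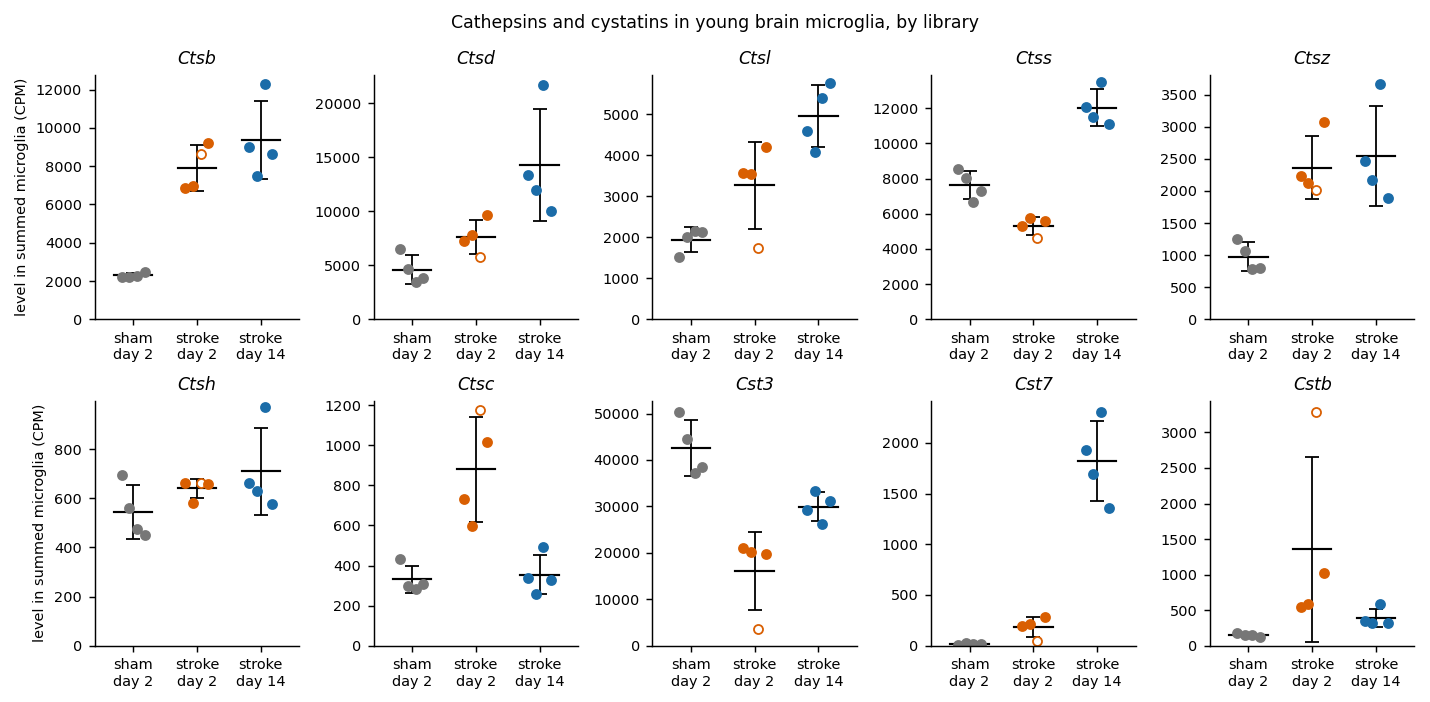
Level of each gene (1 panel each) in young microglia, in CPM on an axis from 0, with 1 point per library for sham day 2, stroke day 2 and stroke day 14, and bars for the mean with SD (n = 4). The open point is stroke day 2 replicate 3, with 58 microglia. It is the lowest day 2 point for Ctsd, Ctsl, Ctss, Ctsz, Cst3 and Cst7 and the highest for Ctsc and Cstb. Ctsb, Ctss, Ctsz, Cst3, Cst7 and Cstb show no overlap of sham with stroke. The share of all genes that separate in this way is not given here, so the separation is not read as particular to the members.

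Markers of other cells also moved in these microglia. The 6 monocyte-derived markers summed to 0 to 18 CPM in sham libraries (0 to 4 of 6 genes with counts), 24.5 to 769.9 at day 2 and 26.0 to 121 at day 14. The 6 microglial markers summed to 14610 to 21335 CPM in sham, 817 to 12465 at day 2 and 9815 to 13705 at day 14. The 6 border-associated macrophage markers summed to 30.4 to 39.7, 8.9 to 223 and 64.3 to 72.9 CPM. The part of these cells in the members' differences was not tested. Libraries also differed in the highest mitochondrial share of any cell, at most 10% in sham replicate 1, day 2 replicates 1 and 2 and day 14 replicates 1 and 2, and above it in the rest. Whether this reflects a filter is not given in the sources used here. Within the low and the high set, the log2 ratios of mean CPM + 1 to that of sham were 1.65 and 1.94 for Ctsb, 0.80 and 1.53 for Ctsz, 0.62 and 1.88 for Ctsc, 4.28 and 3.16 for Cst7 and 1.67 and 3.95 for Cstb at day 2. The high set at day 2 holds replicates 3 and 4, and replicate 4 alone gave 1.99 for Ctsb, 1.80 for Ctsz, 1.77 for Ctsc, 3.94 for Cst7 and 2.87 for Cstb. At day 14 they were 1.91 and 2.17 for Ctsb, 0.96 and 1.99 for Ctsd, 1.52 and 1.41 for Ctsl, 0.47 and 0.74 for Ctss, 0.88 and 1.65 for Ctsz, -0.11 and 0.64 for Ctsh, 7.43 and 6.64 for Cst7 and 0.92 and 1.71 for Cstb. Ctsh thus had opposite signs in the 2 sets. The low set has 1 sham library, so these values have no test.

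Related genes were taken from 4 lists, beside 31.4% of all genes called at day 2 and 15.2% at day 14. Of 10 other cathepsins and lysosomal peptidases, 5 could be tested: at day 2 none was higher and 1 was lower (Ctsf, -1.15 ± 0.29, edgeR adjusted p = 0.0101), and at day 14, 2 were higher, the carboxypeptidase Ctsa (1.35 ± 0.29, edgeR adjusted p = 0.00729) and the tripeptidyl peptidase Tpp1 (0.86 ± 0.25, edgeR adjusted p = 0.0337). Of 18 other protease inhibitors, 2 could be tested, and the serpin Serpinb6a rose at both times (1.59 and 2.66; edgeR adjusted p = 0.00639 and 0.00019). Of 15 genes of lysosomal sorting and regulation, 14 were tested: 2 were higher and 2 lower at day 2, a share near that of all genes, and 5 higher and none lower at day 14. Gnptab, part of the enzyme that starts the mannose 6-phosphate tag, rose by 1.67 ± 0.34 and 1.99 ± 0.32 (edgeR adjusted p = 0.00307 and 0.000868), and progranulin (Grn) by 1.01 ± 0.33 and 1.76 ± 0.33 (edgeR adjusted p = 0.0323 and 0.00332). The TFEB relatives Tfe3 and Mitf were lower at day 2, at -0.83 and -1.28 (edgeR adjusted p = 0.0282 and 0.0217), and the lysosomal membrane proteins Lamp1 and Lamp2 were higher at day 14, at 1.44 and 1.05 (edgeR adjusted p = 0.00472 and 0.0171). All 12 genes of antigen presentation and clearance were tested, with 3 higher at day 2 and 5 at day 14, none lower. At day 14 these were led by Apoe, the lipid carrier, at 6.21 ± 0.62 (edgeR adjusted p = 1.70e-05), followed by lysozyme (Lyz2, 3.71), the lysosomal sterol carrier Npc2 (1.93) and Cd68 (1.29). At day 2 they were the thiol reductase Ifi30 (2.51), Lyz2 (2.17) and Cd68 (1.2), with edgeR adjusted p = 0.000682, 0.00292 and 0.00518. The medians of the sorting list were 0.01 and 0.63 and of the antigen list 1.76 and 2.59 at days 2 and 14, beside -0.05 and -0.04 for all genes tested. Between the stroke times, Apoe (4.85), Lyz2 (1.55), Npc2 (1.36) and Mitf (1.91) were higher at day 14 and Ifi30 (-1.46) was lower, with edgeR adjusted p = 0.000537, 0.0435, 0.00475, 0.00972 and 0.0382. With values rounded up, the calls of Grn and Cd68 at day 2 were lost (edgeR adjusted p = 0.201 and 0.103). So were those of Lamp2 at day 14 and Ifi30 between the stroke times (edgeR adjusted p = 0.056 and 0.124). Trem2, the other of the 5 antigen and clearance genes higher at day 14 (1.23), lost that call too (edgeR adjusted p = 0.107). Its call between the stroke times (1.33) was also lost (edgeR adjusted p = 0.104).

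Monocyte-derived cells are blood-borne phagocytes found in the injured brain, and few are present in sham brain. In these cells 6 of the 9 genes tested were higher at day 2 than in sham (Ctsb, Ctsd, Ctsl, Ctss, Ctsz and Cstb), where 5.66% of the 8080 genes tested were higher, 1.05% lower and 6.71% called in all. At day 14, 7 were higher, Ctsh with those 6, against 4.21% of all genes higher, 0.941% lower and 5.15% called in all. None of the 9 was lower at either time, and Cst7 did not pass the filter on low counts. The median log2 difference of the 9 was 1.89 and 1.93 at days 2 and 14, beside 0.29 and 0.28 for all genes. Sham MdC were mostly of cluster MdC3 (76.4% of cells), day 2 MdC of MdC1 (31.4%) and MdC2 (28.8%), and day 14 MdC of MdC6 (34.0%) and MdC4 (24.7%), so different clusters stand behind the groups. On library size alone the medians of all genes were -0.13 and -0.11, and the split of called genes moved from 457 higher and 85 lower to 180 and 175 at day 2 and from 340 and 76 to 200 and 199 at day 14, while the same 6 members were called at day 2.

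As deposited, Ctsd changed most among the members here. It stood at 483, 258, 163 and 50.6 CPM in sham MdC, 2430.2, 3663, 3558 and 2946 at day 2 and 4787, 3719, 6804 and 1974 at day 14. Its sham values kept less of their rounded-up sum than those of day 2 (below). All 8 stroke libraries lay at least 4 times above the highest sham library. Ctsd rose by 3.97 ± 0.52 on the log2 scale (edgeR adjusted p = 0.000527) and 4.38 ± 0.53 (edgeR adjusted p = 0.000278). Ctsb stood at 1137, 1053, 1522 and 803 CPM in sham, 5408, 7494, 6935 and 6860.5 at day 2 and 8344, 6531, 10232 and 7350.3 at day 14, again with no overlap of sham and stroke. It rose by 3.03 ± 0.33 (edgeR adjusted p = 0.000119) and 3.27 ± 0.33 (edgeR adjusted p = 4.00e-05). Cstb stood at 358, 618, 194 and 814 CPM in sham, 2484, 2767, 4805 and 4538 at day 2 and 1665, 1648, 2508 and 1425 at day 14. No stroke library came down to the sham range, and the day 2 mean was the higher of the stroke times. Cstb rose by 3.46 ± 0.43 (edgeR adjusted p = 0.000399) and 2.38 ± 0.42 (edgeR adjusted p = 0.00337), and the difference of -1.07 ± 0.38 between days 14 and 2 did not pass (edgeR adjusted p = 0.227).

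Ctss stood at 3056, 2588, 2086 and 936 CPM in sham, 5432, 6194, 5627 and 4847 at day 2 and 8847, 7019, 9697 and 6789.9 at day 14, with sham, day 2 and day 14 in separate ranges of rising level. It rose by 1.77 ± 0.37 (edgeR adjusted p = 0.0102) and 2.29 ± 0.38 (edgeR adjusted p = 0.00218). Ctsz rose by 1.89 ± 0.39 and 1.93 ± 0.39 (edgeR adjusted p = 0.00905 and 0.00816), from 136 to 528 CPM to 989 to 1224 and 754 to 1564. Ctsl stood at 355, 308, 225 and 305 CPM in sham, 1036, 1406, 1093 and 1053 at day 2 and 1084, 604, 557 and 308 at day 14. All day 2 libraries exceeded sham, but day 14 replicate 4 lay within the sham range. Ctsl rose by 2.36 ± 0.36 (edgeR adjusted p = 0.00132) and 1.48 ± 0.36 (edgeR adjusted p = 0.0236), the later call being lost without any 1 of the sham libraries or day 14 replicate 1. That call was also lost without TMM, with at least 50 cells and with only the compared groups (edgeR adjusted p = 0.103, 0.0646 and 0.063). The Ctsh call at day 14 (1.15 ± 0.30, edgeR adjusted p = 0.0363) was lost without any 1 of the 8 libraries and in the same 3 alternatives (edgeR adjusted p = 0.117, 0.116 and 0.0688). Ctsc and Cst3 were not called at either time, Ctsc at 1.01 ± 0.36 and 0.26 ± 0.36 (edgeR adjusted p = 0.118 and 0.814) and Cst3 at -0.20 ± 0.38 and 0.26 ± 0.38 (edgeR adjusted p = 0.849 and 0.832).

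Between days 14 and 2, edgeR and DESeq2 each called none of the 9 members in MdC, while edgeR called 1.79% of all genes, and 948 of the 8080 had an unadjusted p under 0.05. Sham MdC were few, 43 to 99 cells a library with 18299 to 112149 counts, against 1468 to 2180 cells at day 2 and 489 to 857 at day 14. In sham MdC the deposited values kept 18.5 to 75.2% of the rounded-up sum for Ctsd and 58.8 to 89.8% for Ctsb, against 94.6% and 96.9% over the day 2 libraries. Neutrophil markers summed to 0 to 3404 CPM in sham MdC, 114 to 246 at day 2 and 27.7 to 112 at day 14, and microglial markers to 0 to 436, 270.3 to 655 and 289 to 1807. The part of depth and of these other cells was not tested. Within the libraries of low and of high mitochondrial limit, the log2 ratios of mean CPM + 1 to that of sham at day 2 were 2.50 and 2.61 for Ctsb, 2.66 and 4.36 for Ctsd, 1.78 and 1.94 for Ctsl, 0.93 and 1.49 for Ctss, 0.93 and 1.82 for Ctsz and 2.87 and 3.11 for Cstb, again with 1 sham library in the low set.

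Of the related lists in MdC, other cathepsins gave 2 of 6 tested higher at both times and none lower: legumain (Lgmn), which processes cathepsins, at 3.51 ± 0.46 and 2.97 ± 0.45 (edgeR adjusted p = 0.000527 and 0.00138), and Tpp1 at 1.70 ± 0.41 and 2.02 ± 0.41 (edgeR adjusted p = 0.0224 and 0.00859). Of all genes, edgeR called 6.71% at day 2 and 5.15% at day 14. All 15 sorting and regulation genes were tested, with 4 higher and none lower at each time: Grn (2.41 and 2.39), prosaposin (Psap, 1.38 and 1.40) and Lamp1 (1.36 and 1.56) at both, with Scarb2 at day 2 (1.24) and Mitf at day 14 (2.67). The Scarb2 call was lost with values rounded up (edgeR adjusted p = 0.103). Of the 12 antigen and clearance genes, 4 were higher and none lower at each time, Cd68 (2.61 and 2.45), Apoe (1.85 and 3.8) and Npc2 (1.34 and 1.47) at both, Ifi30 at day 2 (1.29) and Trem2 at day 14 (2.57). The medians of those 2 lists were 1.03 and 0.26 at day 2 and 0.97 and 1.15 at day 14. Among 3 inhibitors tested, Serpinb6a was called higher at day 2 and day 14 (edgeR adjusted p = 0.0143 and 0.0199). As deposited it had no counts in any of the 4 sham libraries, so it passed the filter through the stroke libraries alone and no fold is given. Serpinb1a was lower at day 14 (-3.47 ± 0.78, edgeR adjusted p = 0.0167). Between the stroke times, 2 genes of the antigen list were higher at day 14, Apoe (1.95) and the invariant chain Cd74 (1.60; edgeR adjusted p = 0.0148 and 0.0426).

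Microglia and MdC of the same stroke libraries were then set side by side, with the library as a block. At day 2, 2 members were higher in MdC (Cstb and Ctsh) and 5 lower (Ctsd, Ctsl, Ctsz, Cst3 and Cst7), where 24.1% of the 8981 genes tested were higher, 18% lower and 42.1% called in all. At day 14, 2 were higher (Cstb and Ctsc) and 6 lower (the same 5 and Ctss), where 20.2% of 9296 genes were higher, 15.9% lower and 36.1% called in all. The types were themselves drawn from expression, so these are descriptions of how the annotated cells differ. Cstb was higher in MdC of all 8 stroke libraries, by 2.24 ± 0.26 at day 2 (edgeR adjusted p = 3.40e-06) and 2.28 ± 0.12 at day 14 (edgeR adjusted p = 1.81e-07). Cst3 was lower in MdC, at -2.33 ± 0.43 (edgeR adjusted p = 0.000381) and -3.29 ± 0.12 (edgeR adjusted p = 2.03e-08). Cst7 was lower too, at -4.37 ± 0.26 (edgeR adjusted p = 3.58e-09) and -6.12 ± 0.62 (edgeR adjusted p = 1.55e-05). In the fit of MdC alone Cst7 did not pass the filter on low counts, so these fitted values are no bounds.

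Cst7 in MdC stood at 7.99, 9.90, 5.42 and 5.59 CPM at day 2 and 76.5, 42.5, 0.97 and 4.50 at day 14, beside the microglial 46.0 to 281 and 1356 to 2300 given above. The deposited Cst7 values of MdC at day 14 kept 1.57 to 80.5% of their rounded-up sum, by library. Even the highest MdC library at day 14 was far under the lowest microglial one. Ctsl was lower in MdC, at -1.05 ± 0.26 at day 2 (edgeR adjusted p = 0.00351) and -3.00 ± 0.27 at day 14 (edgeR adjusted p = 6.46e-06). Ctsd was lower at -0.85 ± 0.25 (edgeR adjusted p = 0.0108) and -1.73 ± 0.14 (edgeR adjusted p = 2.59e-06). Ctsz was lower at -0.69 ± 0.22 (edgeR adjusted p = 0.0172) and -1.08 ± 0.12 (edgeR adjusted p = 3.06e-05). The day 2 calls of Ctsd and Ctsz were lost without replicate 1, and that of Ctsh (0.53 ± 0.20, edgeR adjusted p = 0.0382) without any 1 of the 4 libraries. Without replicate 3 the other 6 day 2 calls stayed, at 2.53 for Cstb, -3.00 for Cst3, -4.53 for Cst7, -1.37 for Ctsl, -1.13 for Ctsd and -0.90 for Ctsz. With values rounded up, the day 2 calls of Ctsd, Ctsl, Ctsz, Ctsh and Cst3 were lost, at -0.34, -0.58, -0.19, 0.83 and -1.94 (edgeR adjusted p = 0.747, 0.453, 0.793, 0.0614 and 0.161). At day 14 Ctss was lower in MdC (-0.52 ± 0.10, edgeR adjusted p = 0.00203) and Ctsc higher (0.66 ± 0.13, edgeR adjusted p = 0.00193). Ctsb was called at neither time: the difference was 0.19 ± 0.22 at day 2 (edgeR adjusted p = 0.513, 95% interval -0.23 to 0.61) and -0.14 ± 0.10 at day 14 (edgeR adjusted p = 0.298, 95% interval -0.32 to 0.05). At day 14, library size alone moved the split over all genes from 1878 higher and 1475 lower to 1677 and 1661, and at day 2 from 2164 and 1613 to 1349 and 3144, with the median of all genes at day 2 going from 0.05 to -0.34.

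**Figure D2:**
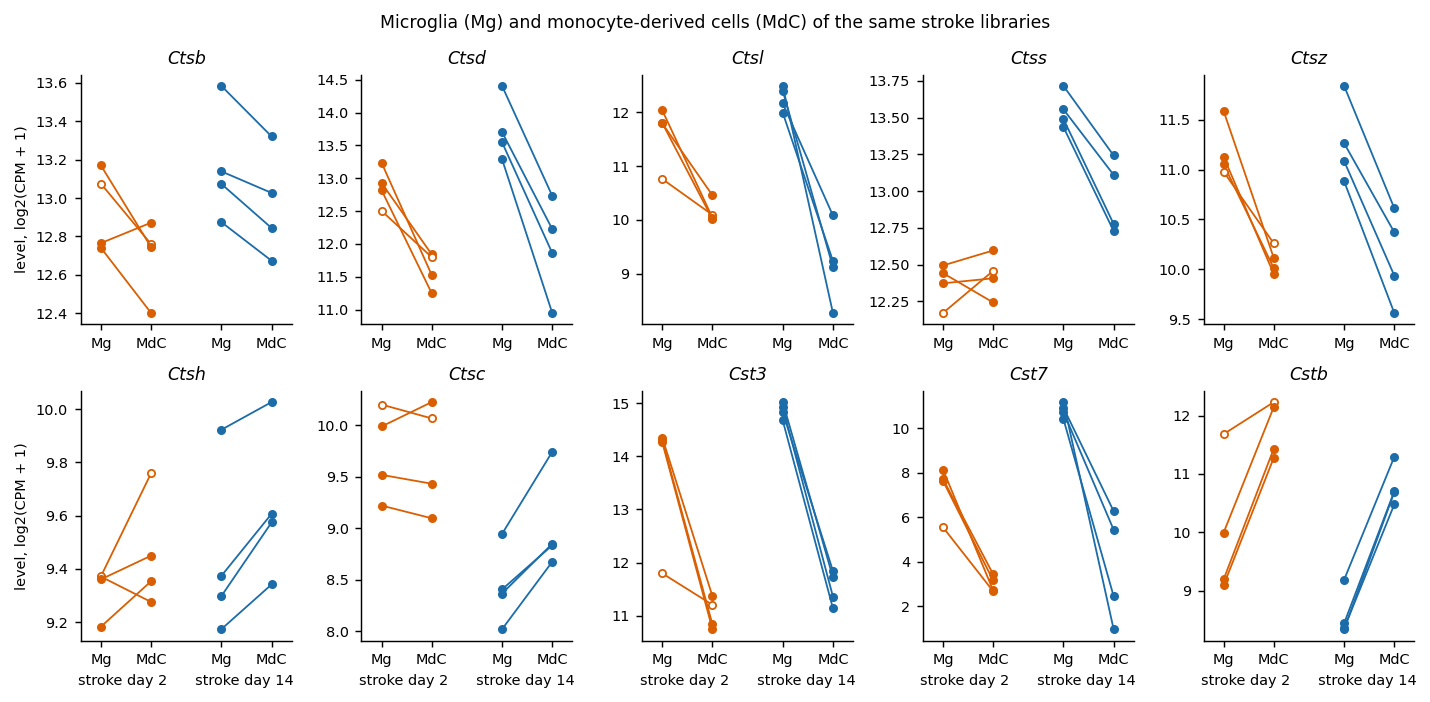
Level of each gene in microglia and monocyte-derived cells of the same young stroke library, as log2(CPM + 1) on axes that do not start at 0, with lines joining the 2 cell types of 1 library at day 2 and day 14 and the open symbol for day 2 replicate 3. Lines for Cst3, Cst7, Ctsd and Ctsl run down from microglia to monocyte-derived cells in all 4 libraries, those for Cstb run up in all 8, and those for Ctsb lie close to level.

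Genes of the related lists were compared in the same way, beside the 42.1% and 36.1% of all genes called at days 2 and 14. Among other cathepsins, the aspartic protease Napsa was higher in MdC (8.25 ± 0.47 at day 2 and 8.08 ± 0.31 at day 14; edgeR adjusted p = 2.62e-09 and 3.29e-08), 2 of 6 tested being higher and 1 lower at day 2, and 1 of 7 higher and 5 lower at day 14. The day 2 share is near that of all genes. Ctsf was lower in MdC at day 14, at -5.53 ± 0.36 (edgeR adjusted p = 5.69e-07). It was not among the genes tested in the fit of MdC alone, so this fitted value is no bound. Ctso was lower at both times (-0.93 and -1.08), Ctsa lower at day 14 (-0.75) and Ctsk, known from bone-resorbing cells, higher at day 2 (6.43). Of 3 inhibitors tested, Serpinb8 was higher (6.42 and 5.24) and Serpinb9 lower (-1.61 and -1.41) at both times, and Serpinb6a higher at day 2 (0.87). Microglial counts of Napsa, Ctsk and Serpinb8 were near 0, so their fitted values are no bounds. In the sorting list 5 of 15 were higher and 4 lower at day 2 and 3 and 5 at day 14; the sorting receptor Sort1 was lower (-2.15 and -2.45) and the mannose 6-phosphate receptor Igf2r (2.31 and 1.61) and Psap (1.97 and 1.15) higher. Nagpa, which uncovers the mannose 6-phosphate tag, was lower at both times (-1.0 and -0.58), as was Gnptg, a subunit of the enzyme that starts it (-0.85 and -1.11). The antigen list had 8 of 12 higher and 1 lower, Trem2, at both times, with the class II genes H2-Aa at 6.21 and 6.23 and H2-Eb1 at 5.73 and 6.03. The day 2 call of Trem2 was lost with values rounded up (-1.10, edgeR adjusted p = 0.0536). H2-Ab1 (4.83 and 5.84), Cd74 (4.45 and 5.80) and Lyz2 (5.00 and 3.50) were also higher at both.

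Within each phagocyte type the authors' finer clusters differed widely in these genes. They were made from the same cells, so their levels are described without a test, and only clusters with at least 20 cells in a library count. In microglia, Ctsb in cluster Mg1 stood at 2375 ± 144 CPM in sham (SD, n = 4), 3911 ± 976 at day 2 (n = 3) and 3520.1 ± 1166 at day 14 (n = 3). Cluster Mg3 stood at 5057 ± 1249 (n = 2), 9031 ± 1054 (n = 3) and 9864 ± 1939 (n = 4), and Mg4 at 3296 ± 523 (n = 3), 11096 ± 1886 (n = 4) and 4027 (1 library). Mg3 thus carried more Ctsb than Mg1 in sham as well as after stroke. Cst7 at day 14 stood at 1959 ± 293 CPM in Mg3 (n = 4), 2329 ± 321 in Mg5 (n = 2) and 1998 ± 962 in Mg7 (n = 4), against 153 ± 74.8 in Mg1 (n = 3). In sham it stood at 350.2 ± 245 in the 2 Mg3 libraries and 10.2 ± 2.88 in Mg1 (n = 4), and at day 2 at 329 ± 29.9 and 62.1 ± 17.8 (n = 3 each). The 2 sham libraries of Mg3 (177 and 523 CPM) spanned its day 2 range of 294 to 348, and its 4 day 14 libraries, from 1676 up, lay above both.

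Cst3 was highest in Mg1 at both stroke times. In Mg1 it stood at 46934 ± 7284, 48798 ± 4158 and 55671 ± 4123 CPM in sham, day 2 and day 14 (SD, n = 4, 3 and 3), and its mean was no lower after stroke. At day 2 it stood at 12558 ± 5812 CPM in Mg4 (n = 4; 15463 ± 209 without replicate 3) and 17045 ± 1803 in Mg5 (n = 3), and at day 14 at 29157 ± 2528 in Mg3 (n = 4) and 19337 ± 3841 in Mg5 (n = 2). Mg4 also held the most Cstb of the microglial clusters at day 2, 1740.0 ± 1252 CPM (n = 4; 1130.0 ± 346 without replicate 3), against 172 ± 45.2 in Mg1 (n = 3). Ctss at day 2 was 9624 ± 1555 in Mg1 and 4969 ± 159 in Mg4, and at day 14 Ctsd was 7474 ± 5004 in Mg1, 14538 ± 4501 in Mg3 and 18727 ± 7572 in Mg5.

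Among MdC, MdC3 was the 1 cluster measured in all groups, and its Ctsb stood at 1184 ± 213, 1982 ± 410.3 and 2875 ± 1515 CPM in sham, day 2 and day 14 (SD, n = 4 each). MdC1 at day 2 held 10688 ± 878 (n = 4) and MdC6 held 9004 ± 1919.8 at day 2 (n = 3) and 13347 ± 2067 at day 14 (n = 4). Ctsd stood at 744 ± 189, 5263 ± 514 and 6069.8 ± 799 CPM in MdC3, MdC1 and MdC6 at day 2. MdC3 was the lowest MdC cluster for Ctsb, Ctsd, Ctsl, Ctss, Ctsz and Cstb at day 2, where 6 clusters were measured, and its Cstb of 1038 ± 445 compared with 4952 ± 1966 in MdC1. Of the border-associated macrophages at day 2, cluster BAM4 held 10183 ± 249 CPM of Ctsb and BAM2 3696 ± 1084 (n = 2 each), and Cstb was 3004 ± 1114 and 838 ± 524.

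**Figure D3:**
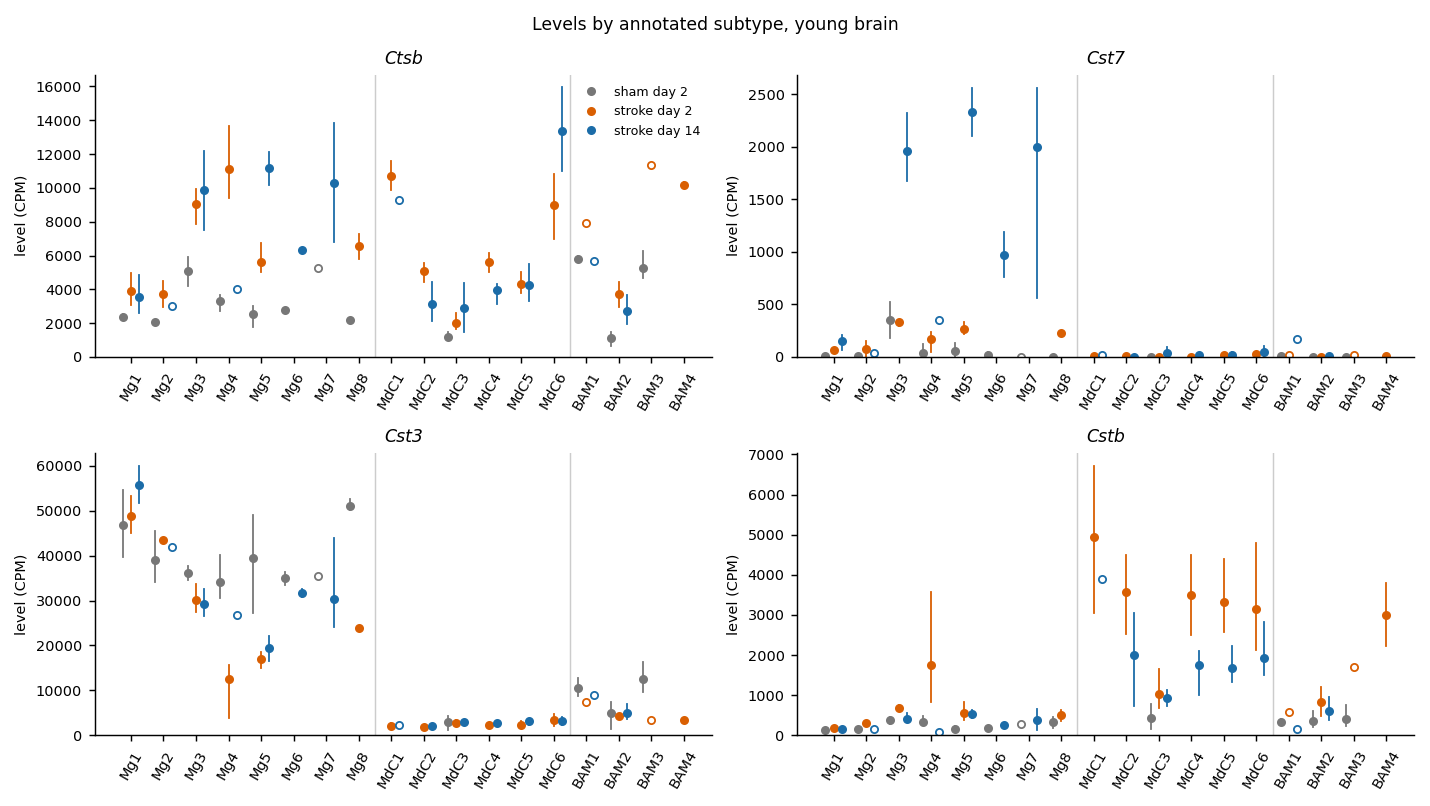
Ctsb, Cst7, Cst3 and Cstb in the authors' clusters of microglia (Mg1 to Mg8), monocyte-derived cells (MdC1 to MdC6) and border-associated macrophages (BAM1 to BAM4) of young brain, in CPM; points are means, lines run from the lowest to the highest library and open points rest on 1 library. Cst7 is high in Mg3, Mg5 and Mg7 at day 14, and Cst3 in Mg1 stays near its sham level while Mg4 at day 2 is far lower.

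Endothelial cells line the vessels and carried little of most members. Ctsz was the only member of 8 tested to be called at day 2, where 6.89% of 5833 genes were higher, 6.45% lower and 13.3% called in all. It stood at 76.2, 43.2, 44.6 and 44.4 CPM in sham, 106, 74.2, 119 and 82.7 at day 2 and 72.1, 63.0, 67.2 and 56.4 at day 14, and day 2 replicate 2 fell below sham replicate 1. Ctsz rose by 0.91 ± 0.25 (edgeR adjusted p = 0.0273), a call lost without any 1 of sham replicates 2 to 4 or day 2 replicates 1 and 3. It was also lost without TMM, without the filter and without the top 5% of cells by count (edgeR adjusted p = 0.0578, 0.0887 and 0.0803). Cluster EC1 held 58.1% of endothelial cells in sham and 24.7% at day 2, and EC2 3.04% and 40.8%. The part of the clusters in the Ctsz difference was not tested. Ctsb stood at 199, 184, 143 and 139 CPM in sham and 314, 299, 291 and 292 at day 2, ranges that did not overlap, but at 5.57, 159, 256 and 145 at day 14, where replicate 1 was far below the rest. The fit gave 0.90 ± 0.53 at day 2 (edgeR adjusted p = 0.27). Ctsb was called at day 2 in the fit of only the compared groups, at 0.92, and with values rounded up, at 1.08 (edgeR adjusted p = 0.0103 and 0.00259). At day 14 it was not called, at -0.35 ± 0.58 (edgeR adjusted p = 0.986). The sign turned without day 14 replicate 1 (0.17) and with values rounded up (0.69), neither called (edgeR adjusted p = 0.991 and 0.293). The deposited day 14 values kept 1.48 to 60.6% of their rounded-up sum, by library. At day 14 edgeR called no member and 0% of all genes, with 356 genes at an unadjusted p under 0.05, and DESeq2 called 8 genes higher and 5 lower, no member among them. As deposited, Ctss and Cst7 had too few counts in endothelial cells to be tested. With values rounded up in each cell Ctss was tested and not called, at -0.47 at day 2 and 0.35 at day 14 (edgeR adjusted p = 0.193 and 0.88). Of the related lists at day 2, Lgmn was called higher (edgeR adjusted p = 0.0341). As deposited it had less than 1 count in each sham library, so no fold is given. With values rounded up, the call was lost (log2 difference 0.41, edgeR adjusted p = 0.284). Apoe was lower (-1.01, edgeR adjusted p = 0.0466). That call too was lost with values rounded up (-0.57, edgeR adjusted p = 0.155).

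Border-associated macrophages were few, 52 to 282 cells a library in sham and 31 to 182 at day 2, and 1313 genes could be tested. Ctsd and Cstb of 9 members were higher at day 2, where 1.75% of genes were higher and 2.67% called in all. Ctsd stood at 1579.7, 1038, 728 and 172 CPM in sham and 2733, 3895, 2782 and 2898 at day 2, and Cstb at 498, 325, 276 and 217 and 945, 606, 2719.8 and 1199, without overlap in either gene. The log2 differences were 1.72 ± 0.44 (edgeR adjusted p = 0.048) and 2.00 ± 0.48 (edgeR adjusted p = 0.0374). Ctsd lost its call without sham replicate 2, 3 or 4 or any day 2 library, and Cstb without sham replicate 2, 3 or 4 or day 2 replicate 3 or 4. Both calls were lost without the filter (edgeR adjusted p = 0.414 and 0.0723) and with replicate number as a block. They were lost too without the top 5% of cells (0.0776 and 0.0511). That of Ctsd was lost without TMM (0.051), with values rounded up (0.0533), with at least 50 cells (0.115) and with only the compared groups (0.0843). Cluster BAM4 held 1.70% of these cells in sham and 26.9% at day 2. The part of the clusters in these differences was not tested. At day 14 none of the 9 was called, against 0.0762% of all genes, with 79 genes at an unadjusted p under 0.05, and DESeq2 called none of them either. Cells annotated DC gave no call among the 10 members at day 2, day 14 or between them, where edgeR called 1.01% (0.687% higher), 1.53% and 0.893% of 4365 genes, and 659, 503 and 493 passed an unadjusted 0.05. The nearest was Cstb in DC at day 2, 127 to 349.7 CPM in sham against 471 to 930.0, at 1.36 ± 0.31 (edgeR adjusted p = 0.0543); DESeq2 called 2 members at day 2, 0 at day 14 and 1 between the times. Of the related lists in DC, Ifi30 was higher at day 2 (1.72), Lyz2 lower at day 14 (-1.5) and Serpinb9 higher at day 14 than at day 2 (2.84; edgeR adjusted p = 0.0237, 0.043 and 0.0197).

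Granulocytes of the brain were measured without a test. Their Ctsb stood at 315, 221, 275 and 293 CPM in sham, 1021, 1455, 1096 and 611 at day 2 and 2285, 2674, 2596 and 1866 at day 14, 3 ranges without overlap. As deposited, Cst7 had no counts in the 4 sham libraries and less than 1 count in any library at day 2, and no limit is drawn from these values. It stood at 223, 167, 147 and 161 CPM at day 14, from 26.4 counts over the 4 libraries. Cstb had means of 112 ± 40.1, 1355 ± 1157 and 1800.2 ± 716 CPM (SD, n = 4 each), and Ctsd 507 ± 102, 1369 ± 180.2 and 2143 ± 839.

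In blood, the members followed other cell types. In sham blood, monocytes had the highest mean CPM of Ctsb (1767 ± 265; SD, n = 4), Ctss (2661 ± 420.3), Ctsc (642 ± 74.6) and Cstb (275 ± 62.0); with TMM scaling they led for 6 genes, Ctsz, Ctsh and Cst3 coming in and Cstb dropping out. Neutrophils, which phagocytose and carry granule proteases, had the highest Ctsd at 805 ± 193 CPM (n = 4), overlapping with NK cells at 681 ± 215 (n = 4), and monocytes had 172 ± 54.8. Cst7 was highest in NK cells at 217 ± 63.3 CPM and T cells at 102 ± 8.18, and close to 0 in neutrophils and monocytes, at 0.23 ± 0.29 and 2.48 ± 2.06. The blood level in T cells was near that of brain T cells in sham, 91.2 ± 61.5, whereas Cst3 was 113 ± 17.4 CPM in blood T cells and 1158 ± 691 in brain T cells, and 334 ± 56.0 in blood B cells and 2032 ± 1275 in brain B cells. Brain and blood tables were deposited separately, and no test was made across them. The same brain libraries held microglia with a mean of 42596 CPM of Cst3, whose part in the lymphocyte values was not tested.

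Blood neutrophils at day 2 gave no call in edgeR among the 9 members or any of the 4944 genes (0%), with 209 genes at an unadjusted p under 0.05, and DESeq2 called none. At day 14, 2 of the 9 members were lower than in sham, Ctsb and Ctsl, and 1 higher, Ctsz, where 3.8% of genes were lower, 2.18% higher and 5.99% called in all. Ctsb stood at 319, 305, 229.6 and 262 CPM in sham, 294, 315, 264 and 222 at day 2 and 215, 108 and 138 at day 14. The 3 day 14 libraries lay below all others. Different clusters held most neutrophils: Neu3 held 5.23% in sham, 5.70% at day 2 and 72.2% at day 14, while Neu1 and Neu2 held 30.4% and 41.9% in sham, 47.3% and 25.7% at day 2 and 3.22% and 5.07% at day 14. Within Neu3, Ctsb was 212 ± 70.4 CPM in sham, 327 ± 112 at day 2 and 149 ± 53.9 at day 14 (SD, n = 3 each), with no test. Ctsb fell by 1.2 ± 0.25 against sham (edgeR adjusted p = 0.00963; lost without day 14 replicate 2 or 3) and by 1.14 ± 0.24 against day 2 (edgeR adjusted p = 0.0145; lost without day 2 replicate 1 or day 14 replicate 2 or 3).

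Ctsl in neutrophils stood at 53.3, 40.7, 55.6 and 68.5 CPM in sham, 48.0, 86.1, 97.7 and 47.9 at day 2 and 35.4, 23.2 and 22.2 at day 14, the last again below all others. Within Neu3, Ctsl was 25.9 ± 9.82 CPM in sham, 40.1 ± 22.0 at day 2 and 26.9 ± 6.62 at day 14 (SD, n = 3 each, from 5.70, 14.0 and 23.7 counts in all), 3 ranges that overlap, and in sham Neu1 and Neu2 it was 64.0 ± 38.6 and 62.8 ± 10.9 (n = 4 each). Over all neutrophils Ctsl fell by 1.31 ± 0.31 (edgeR adjusted p = 0.0214; lost without sham replicate 1 or day 14 replicate 2 or 3) and 1.51 ± 0.31 (edgeR adjusted p = 0.0122; lost without day 14 replicate 2 or 3), where 3.3% of genes were lower at day 14 than at day 2 and 4.69% called in all. Ctsz moved up, from 37.1, 47.1, 64.1 and 61.8 CPM in sham and 42.0, 55.4, 64.0 and 68.3 at day 2 to 121, 102 and 167 at day 14. All 3 day 14 libraries lay above the others, and within Neu3 Ctsz was 59.1 ± 17.3, 41.5 ± 31.9 and 142 ± 31.0 CPM (SD, n = 3 each). The part of the cluster shares in the neutrophil calls was not tested. Ctsz rose by 0.96 ± 0.26 against sham (edgeR adjusted p = 0.0357), a call lost without sham replicate 1 or 2, any day 14 library or the filter (0.0698), and differed by 0.82 ± 0.25 from day 2 (edgeR adjusted p = 0.0751). Cst3 stood at 600.3, 519, 793 and 1014 CPM in sham, 760.1, 883, 644 and 787 at day 2 and 1576, 1387 and 1593 at day 14, also without overlap, at 0.73 ± 0.23 (edgeR adjusted p = 0.0718). Scaling bears on these: neutrophil markers took 198529.6 to 302058 CPM in sham and 112285 to 189942 at day 14, and without TMM the median of all genes moved from 0.02 to 0.36 and the split from 108 higher and 188 lower to 293 and 99. On library size alone Ctsb was still lower (-0.85, edgeR adjusted p = 0.0484), Ctsl was not called (-0.96, edgeR adjusted p = 0.104), and Cst3 was called higher (1.07, edgeR adjusted p = 0.0135). Against day 2, the Ctsb and Ctsl calls were lost on library size alone (-0.81 and -1.23; edgeR adjusted p = 0.0694 and 0.0549).

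Inhibitors of the stefin group, close relatives of Cstb found in mouse neutrophils, were lower at day 14. Of 18 other inhibitors, 7 were tested in neutrophils and 5 were lower than in sham, none higher: Stfa2 (-4.53 ± 0.70, edgeR adjusted p = 0.00204), Stfa3 (-3.88 ± 0.90, edgeR adjusted p = 0.0192), BC100530 (-3.78 ± 0.51, edgeR adjusted p = 0.00105), Stfa1 (-1.76 ± 0.36, edgeR adjusted p = 0.00953) and Stfa2l1. Of all genes in neutrophils at day 14, 3.8% were lower, 2.18% higher and 5.99% called in all. The median of the 7 was -1.76, against 0.02 over all genes, and the same 5 were lower than at day 2. These are near-identical paralogs, so reads may be split between them and the single genes are uncertain. Of 11 sorting genes tested, 2 were higher (M6pr, 1.19, and Tfeb, 0.99) and 2 lower (Grn, -1.0, and Lamp2, -0.74), and of 4 other cathepsins Napsa was lower (-1.09, and -1.29 against day 2).

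In blood monocytes no member of 9 was called at day 2 (0% of 6706 genes in edgeR, 189 at an unadjusted p under 0.05, none by DESeq2) or day 14 against sham (0.254%), and 1, Ctsl, was lower at day 14 than at day 2, where 0.447% of genes were lower and 0.537% called in all. Monocyte Ctsl stood at 125, 144, 189 and 61.9 CPM in sham, 154, 161, 186 and 126 at day 2 and 70.4, 46.9 and 45.9 at day 14. It fell by 1.53 ± 0.33 between the stroke times (edgeR adjusted p = 0.0454), a call lost without any 1 of the 7 libraries and without the top 5% of cells (edgeR adjusted p = 0.0568). Cluster Mo2 held 54.6% of monocytes at day 2 and 2.42% at day 14, and Mo1 17.6% and 45.2%. Ctsl was 208 ± 30.0 CPM in Mo2 at day 2 (SD, n = 4) and 144 ± 8.03 at day 14 (n = 2, from 3.88 counts in all), and 115 ± 18.3 and 57.0 ± 11.1 in Mo1 (n = 3 each). The part of the clusters in the call was not tested. Ctsb in monocytes ranged from 1474 to 2002 CPM in sham, 1553 to 1994 at day 2 and 1717 to 2108 at day 14, and its difference from sham was 0.01 ± 0.15 at day 2 (95% interval -0.29 to 0.31) and 0.07 ± 0.16 at day 14 (95% interval -0.25 to 0.39). Ctsb was thus called higher in brain MdC and not in blood monocytes, and the difference between them was not tested.

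**Figure D4:**
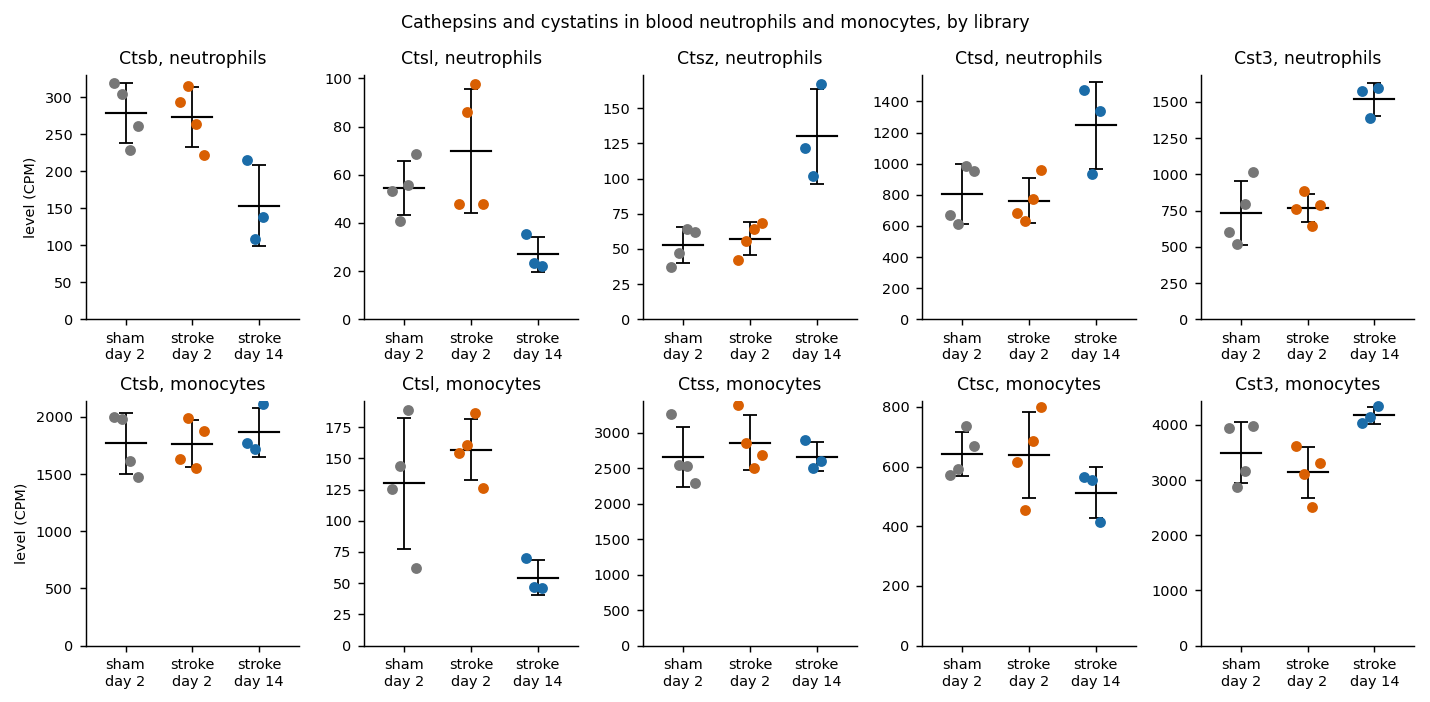
Levels in blood neutrophils (Ctsb, Ctsl, Ctsz, Ctsd and Cst3) and blood monocytes (Ctsb, Ctsl, Ctss, Ctsc and Cst3), in CPM, with 1 point per library for sham day 2, stroke day 2 and stroke day 14 and bars for the mean with SD (n = 4, 4 and 3). In neutrophils the 3 day 14 points lie below the others for Ctsb and Ctsl and above them for Ctsz and Cst3, while the monocyte groups overlap for Ctsb, Ctss and Ctsc.

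In aged microglia 2 of the 10 members, Cst7 and Cstb, were called higher at day 2 after stroke than in sham, where 1.78% of 11096 genes were higher and 2.3% called in all. Cst7 stood at 35.4 and 81.3 CPM in the male and female sham libraries, 195, 326 and 292 in the 3 stroke libraries (1 male, 2 female) and 1669 in the single day 14 library. Cstb stood at 124 and 177 CPM in sham, 869, 859.6 and 358 at day 2 after stroke and 439 at day 14. Sham and stroke did not overlap for either gene, and the log2 differences were 2.20 ± 0.54 (edgeR adjusted p = 0.0426) and 2.27 ± 0.57 (edgeR adjusted p = 0.0477). The Cst7 call was lost without either sham library or either female stroke library and with only the compared groups (edgeR adjusted p = 0.077). The Cstb call was lost without either sham library, the male stroke library or female stroke replicate 1. Cstb was also not called with sex as a covariate, with only the compared groups, without TMM or without the top 5% of cells (edgeR adjusted p = 0.0631, 0.08, 0.094 and 0.0792). Cst7 with sex as a covariate was called (edgeR adjusted p = 0.0456). Ctsb stood at 2624 and 2798 CPM in aged sham and 8740.3, 8372 and 5457 after stroke, at 1.54 ± 0.42 (edgeR adjusted p = 0.064), and Cst3 at 50637 and 51187 and 18833, 14064 and 22720.3, at -1.39 ± 0.64 (edgeR adjusted p = 0.297).

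Age itself gave no call among the members in sham microglia, where 0.018% of genes were called in edgeR, 520 genes passed an unadjusted 0.05, and no member was called with DESeq2. Cst7 was 35.4 and 81.3 CPM in aged sham against 9.55 to 23.4 in young sham, a difference of 2.00 ± 0.50 that did not pass (edgeR adjusted p = 0.309). The aged libraries included both sexes and the young ones males only, so age and sex cannot be told apart in the female libraries. The young and aged brain tables also held different numbers of genes, 19704 and 27514. Age therefore cannot be told apart from differences between the tables. The test of whether the stroke difference itself changed with age called no gene (0%; 623 at an unadjusted p under 0.05, none by DESeq2), and for Cst7 it gave -1.74 ± 0.65 (edgeR adjusted p = 0.768, 95% interval -3.02 to -0.46). Without young day 2 replicate 3 that value was -1.92 (edgeR adjusted p = 0.751).

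Genes whose level followed that of each member most closely over types and libraries were looked up as a description, by Pearson correlation of log2(CPM + 10) over 102 sums of 11 types in 12 young brain libraries, which share libraries and cells. Ctsb was most like Cd68 (r = 0.893), the lysosomal membrane protein of phagocytes, and Aif1 (0.87), and Ctsz was most like the same pair (0.816 and 0.815). Ctss followed Aif1 (0.88) and Ly86 (0.871), Ctsd followed Syngr1 (0.856), and Ctsl followed Rin2 (0.793) and Itgb5 (0.785). Ctsc followed Ms4a6d (0.83) and P2ry6 (0.82), Ctsh followed Cd302 (0.758) and Tifa (0.748), and Cst3 followed Marcks (0.752) and Ly86 (0.749). Cstb followed Sdcbp (0.835) and the ferritin chain Fth1 (0.79), and Cst7 had the least close partners, Padi2 (0.614) and B2m (0.611). Among the members themselves the closest pairs in brain were Ctsb with Ctsz (0.834), Ctsd (0.816) and Ctss (0.814), while the closest member to Cst7 was Ctsd (0.445). In blood, over 72 sums of 9 types in 11 libraries, Ctss followed Ifi30 (0.908) and legumain (0.899), Ctsb followed prosaposin (0.905), and Cst7 followed Skap1 (0.916) and Il18r1 (0.887).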

How the data were processed

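Single-cell expression was measured by Drop-seq in the 29 brain and blood libraries described above. The deposited gene tables hold estimated counts, fractions that lie below whole numbers, in some shallow samples far below; per the submitters' processing notes Seurat and the mm10 build were used, and the aligner, the counting, the source of the fractions and the cell filters are not given in the sources used here. The deposited cell tables also hold the authors' cell types, the count of genes per cell, which was not used here, and the percent of mitochondrial counts per cell, which was used to divide libraries. No doublets were called.

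Estimated counts were summed per library and parent type, for types with at least 20 cells, and rounded to whole numbers for testing. Genes passing filterByExpr were tested with edgeR 4.0.16 in R 4.3.3 (TMM scaling, quasi-likelihood fit, Benjamini-Hochberg adjustment over all genes tested, calls at an adjusted p under 0.05, two-sided), in 24 comparisons. All groups of a tissue and age entered 1 fit, except that microglia of both ages shared a fit for the age comparisons and that paired cell types had the library as a block. SE is the log2 difference divided by the square root of F, and 95% intervals are normal ones from that SE. Levels are CPM of the summed counts. Likeness between genes used log2(CPM + 10) over genes whose mean was 20 CPM or more. Alternatives were DESeq2 1.42.0, no TMM, no filter, values rounded up in each cell, at least 50 cells, no cells among the top 5% by count, only the compared groups, each library left out, a replicate block and sex for the aged libraries. Chosen after seeing the data were a mitochondrial term, for a highest share of at most 10% or above it, and, for microglial clusters and ratios within these 2 sets of libraries, leaving out day 2 replicate 3.

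The text names all 10 members, from each related list up to 4 called genes with the largest change, and the 2 genes most like each member, of which 1 is not reported here. The members and lists were chosen with earlier results of these data known. Replicate numbers were not read as a pairing of the libraries. In microglia, 5 of 12 same-numbered pairs and 11 of 36 differently numbered pairs had correlated deviations above 0.1. For MdC these were 5 of 12 and 4 of 36, and for endothelial cells 6 of 12 and 7 of 36. The median was higher for same-numbered pairs in every type examined, so these values do not settle whether the numbers pair libraries. On simulated microglial counts of 9704 genes, 68.0% of 100 genes changed 4-fold and 7.0% of 100 changed 2-fold were recovered, with 4 false calls. In the real microglia at day 2, 1588 genes were called higher and 1594 lower of 10145 tested, far more than were changed in the simulation. The recovered shares therefore need not hold for the real comparison. Genes of the related lists absent from a table are not analysed here.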

Additional observations from a re-analysis of the deposited data

Results flagged for a closer look

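Of 175 groups of 4 libraries with at least 20 counts of a member, 11 had 1 library so far from the others that its gap, as a share of the group's range, passed Dixon's 95% critical value; chance gives about 1 in 20 groups. Values are CPM. In microglia, Cst3 was 3552 in stroke day 2 replicate 3, the library of 58 cells, against 19735 to 20949.8 in the others. Cstb was 581 in stroke day 14 replicate 3 against 323 to 346, and Ctsh was 580.2 in stroke day 2 replicate 2 against 656 to 661. In monocyte-derived cells, Ctsc was 855 in stroke day 14 replicate 3 against 408 to 460, and Ctsl was 1406 in stroke day 2 replicate 2 against 1036 to 1093.

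In border-associated macrophages, Ctsd was 3895 in stroke day 2 replicate 2, with 31 cells, against 2733 to 2898. In endothelial cells, Cstb was 166 in sham replicate 3 against 214 in each of the others, Ctsz was 76.2 in sham replicate 1 against 43.2 to 44.6, and Ctsh was 508 in stroke day 14 replicate 3 against 276 to 310.2. In blood, Ctsh of monocytes was 504 in sham replicate 3 against 371 to 393, and Ctss of neutrophils was 106 in sham replicate 4, from 25.7 counts, against 48.8 to 56.9.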

How the results depend on the processing

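Over the alternatives, the 54 called differences of single members gave 808 values, of which 673 stayed called in the same direction, 135 were no longer called and none reversed; 26 differences stayed called in every alternative. The 6 calls in MdC at day 2 were among them. In microglia at day 2, DESeq2 called 8 members and values rounded up 3, against 5, and at day 14 rounding up gave 4, against 8. Between days 14 and 2, against 2, DESeq2 gave 7, no TMM 4, and no filter, rounding up and the fit of only the compared groups 1 each. Endothelial cells at day 2 gave 0 without TMM, without the filter and without the top 5% of cells, 2 with only the compared groups and 3 when rounded up, against 1. Border-associated macrophages at day 2, against 2, gave 1 without TMM, when rounded up, with at least 50 cells and with only the compared groups, and 0 without the filter, without the top 5% and with the replicate block. DC at day 2, against 0, gave 2 with DESeq2, 1 without TMM, 3 without the filter, 2 when rounded up and 1 with the mitochondrial term. DC at day 14 gave 1 when rounded up, DC between times gave 1 with DESeq2 and 1 with the mitochondrial term, and MdC between times gave 1 when rounded up, each against 0. Neutrophils at day 14 gave 5 without the top 5%, against 3. Monocytes gave 1 at day 14 without the filter, against 0, and 0 between times without the top 5%, against 1. Aged microglia after stroke gave 4 with DESeq2, 1 with sex as a covariate and 0 with only the compared groups, against 2, and aged against young sham gave 1 without the filter, against 0. MdC against microglia at day 2 gave 3 without the library block and 2 when rounded up, against 7. The cause of these changes was not tested.

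Leaving out each library in turn gave 5 to 8 members called in microglia at day 2, 5 to 8 at day 14 and 2 to 3 between times, 6 in every case in MdC at day 2 and 5 to 6 at day 14. It gave 0 to 1 in endothelial cells, 0 to 2 in border-associated macrophages and 0 to 1 in DC at day 2, 0 to 4 in neutrophils at day 14 and 0 to 3 between times, 0 to 1 in monocytes at day 14 and 0 in every case between times, 0 to 2 in aged microglia after stroke, and 4 to 6 and 8 in every case for MdC against microglia at days 2 and 14. Without an aged sham library the other is assumed to vary like the remaining groups. The shares of all genes called in the fits that left out a library are not given here. The deviations of same-numbered libraries do not settle whether the numbers pair libraries, and the main fits did not use the numbers as a pairing. With the replicate block, microglia at day 14 gave 6 calls, without Ctss and Ctsh.

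Counts over all genes moved by more than 1.5 times in some alternatives. In microglia, no TMM gave 3425 called genes at day 14 against 1544 and 1157 between times against 703, where rounding up gave 1057. In MdC, no TMM gave 355 at day 2 against 542, and between times DESeq2 gave 413 and the replicate block 469 against 145. Without the filter, neutrophils gave 487 at day 14 against 296, 408 between times against 232 and 32 at day 2 against 0. In DC and monocytes DESeq2 or no filter gave more, 108 and 124 in DC at day 2 against 44, and 58 and 128 in monocytes between times against 36. Aged microglia after stroke gave 480 with DESeq2, 393 without the filter and 386 when rounded up, against 255. In border-associated macrophages, with 31 to 282 cells a library in sham and at day 2, 1313 genes could be tested.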
